A study of Caenorhabditis elegans with 3 samples.

Results

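The 8 genes described here encode receptors for gamma-aminobutyric acid (GABA) in Caenorhabditis elegans, or, for lgc-37 and lgc-38, channels of the same family whose ligand is not assumed here. All coordinates are in ce11 (WBcel235). The genes were chosen by name and are 8 of the 19973 nuclear protein-coding genes of the annotation. They comprise ligand-gated ion channels (unc-49, exp-1, lgc-35, gab-1, lgc-37 and lgc-38) and metabotropic GABA-B subunits (gbb-1 and gbb-2). Every peak whose summit lay in the gene body or within 6 kb on either side was collected, with its signal, its rank and its distance to an annotated transcript start.

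The peaks came from chromatin immunoprecipitation and sequencing of UNC-55, a nuclear receptor of the COUP-TF family, in whole L2 larvae of pooled sex. All 3 samples were biological replicates of 1 group, strain NC1639, carrying the transgene wdIs49 on chromosome III, in which the ttr-39 promoter drives UNC-55a::GFP beside a dpy-20+ marker. The promoter acts in GABA motor neurons, and the tagged UNC-55 is made where that promoter is active. The chromatin came from whole larvae, and the peak lists do not tell apart the cells behind a peak. The labels call the tag eGFP, and for replicate 3 alone also a C-terminal GFP-FLAG. They also give a fragment size range for replicates 1 and 2 and microtip sonication for replicate 3, so differences between replicates may be technical. No untagged sample was analysed here, and depth per replicate is unknown.

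GABA is the main inhibitory transmitter at the worm's neuromuscular junction. Ionotropic receptors open a pore when GABA binds and pass either anions, which inhibit the cell, or cations, which excite it. Metabotropic GABA-B receptors are obligate pairs of subunits that act through G proteins. UNC-55 acts in ventral D motor neurons, where it prevents the remodelling of GABA synapses that dorsal D neurons undergo, and the receptors for the released GABA sit largely on other cells, among them body wall muscle.

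Of the 6 summits that lay closer to a start of a receptor gene than to any other protein-coding start, 5 are shown here. Each is given as 101 bases of the RefSeq sequence (WBcel235, ce11, forward strand, from 50 bases before to 50 after the summit). A nearest start does not place a site in that gene. Both windows labelled unc-49 upstream lie in an intron of sly-1, and the exp-1 summit lay 3561 bp downstream of the exp-1 start. Capitals mark GAAGAA or TTCTTC, and TAATCC or its reverse complement GGATTA.
unc-49 intron 4, chrIII:10523215-10523315: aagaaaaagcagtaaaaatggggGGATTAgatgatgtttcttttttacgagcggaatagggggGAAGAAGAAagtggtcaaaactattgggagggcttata
unc-49 upstream, nearest, chrIII:10517054-10517154: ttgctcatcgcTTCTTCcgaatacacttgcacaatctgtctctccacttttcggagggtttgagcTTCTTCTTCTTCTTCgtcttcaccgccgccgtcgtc
unc-49 upstream, middle, chrIII:10515909-10516009: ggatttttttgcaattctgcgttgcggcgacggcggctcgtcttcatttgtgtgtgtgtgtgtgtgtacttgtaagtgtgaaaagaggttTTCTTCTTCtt
gab-1 and lgc-37 intergenic, chrIII:12780828-12780928: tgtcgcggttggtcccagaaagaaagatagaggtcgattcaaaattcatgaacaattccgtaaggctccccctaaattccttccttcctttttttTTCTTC
exp-1 intron, chrII:6157483-6157583: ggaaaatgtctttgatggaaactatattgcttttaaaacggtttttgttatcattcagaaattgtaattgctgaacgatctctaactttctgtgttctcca

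None of these windows held the nuclear receptor half-site AGGTCA on either strand. The same held for all 11 optimal peaks in reach of the receptor genes, against 1.37% of all 5993 optimal peaks with the core (82 peaks) and 2.02% of the weaker pooled peaks. TAATCC, a core recognised by bicoid-class homeodomains such as that of UNC-30, stood once, on the reverse strand of the unc-49 intron peak, so in 1 of 11 peaks against 4.66% of all optimal peaks. TTCTTC, searched on both strands and only after the sequences had been read, stood in 5 of the 11 peaks against 17.9% of all optimal peaks. In the unc-49 upstream peak nearest to the gene it formed a run of overlapping copies. The windows of the receptor genes had a median GC content of 39.6%, against 43.6% for all optimal peaks. Such matches describe the letters in these windows and show neither binding nor its absence.

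The authors' optimal list, described as peaks past their reproducibility threshold, placed 11 distinct peaks in reach of 7 of the 8 receptor genes. Its 5993 peaks are the same as the 5993 pooled peaks of highest signal. A place in it therefore does not show that a peak was found in every replicate. unc-49 had 4 of them, exp-1 and gbb-2 had 2 each, and gbb-1 and lgc-38 had 1 each. gab-1 and lgc-37 shared 1 peak, and lgc-35 had none. Among all protein-coding genes, 51.5% had an optimal peak by the same rule. The receptor genes' windows were longer, with a median of 21141 bp against 14027 bp for all genes, and a longer window has more room for a peak. Per 10 kb, the merged windows of the receptor genes held 0.673 optimal peaks, against 0.598 in the nuclear genome.

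Of the 8 receptor genes, 3 (unc-49, exp-1 and gab-1) held an optimal peak closer to their own start than to that of any other protein-coding gene. That is 37.5%, against 21.8% of all genes, with no adjustment for the longer windows of the receptor genes. For 5 of the 11 peaks the nearest start belonged to a gene outside the receptor set. An optimal summit lay in a promoter window, from 2000 bp upstream to 500 bp downstream of an annotated start, at 2 of the 8 genes (unc-49 and gab-1), a share of 25.0% against 25.5% of all genes. Both shares are close, so the promoter count does not set the receptor genes apart from the genome.

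**Figure D1:**
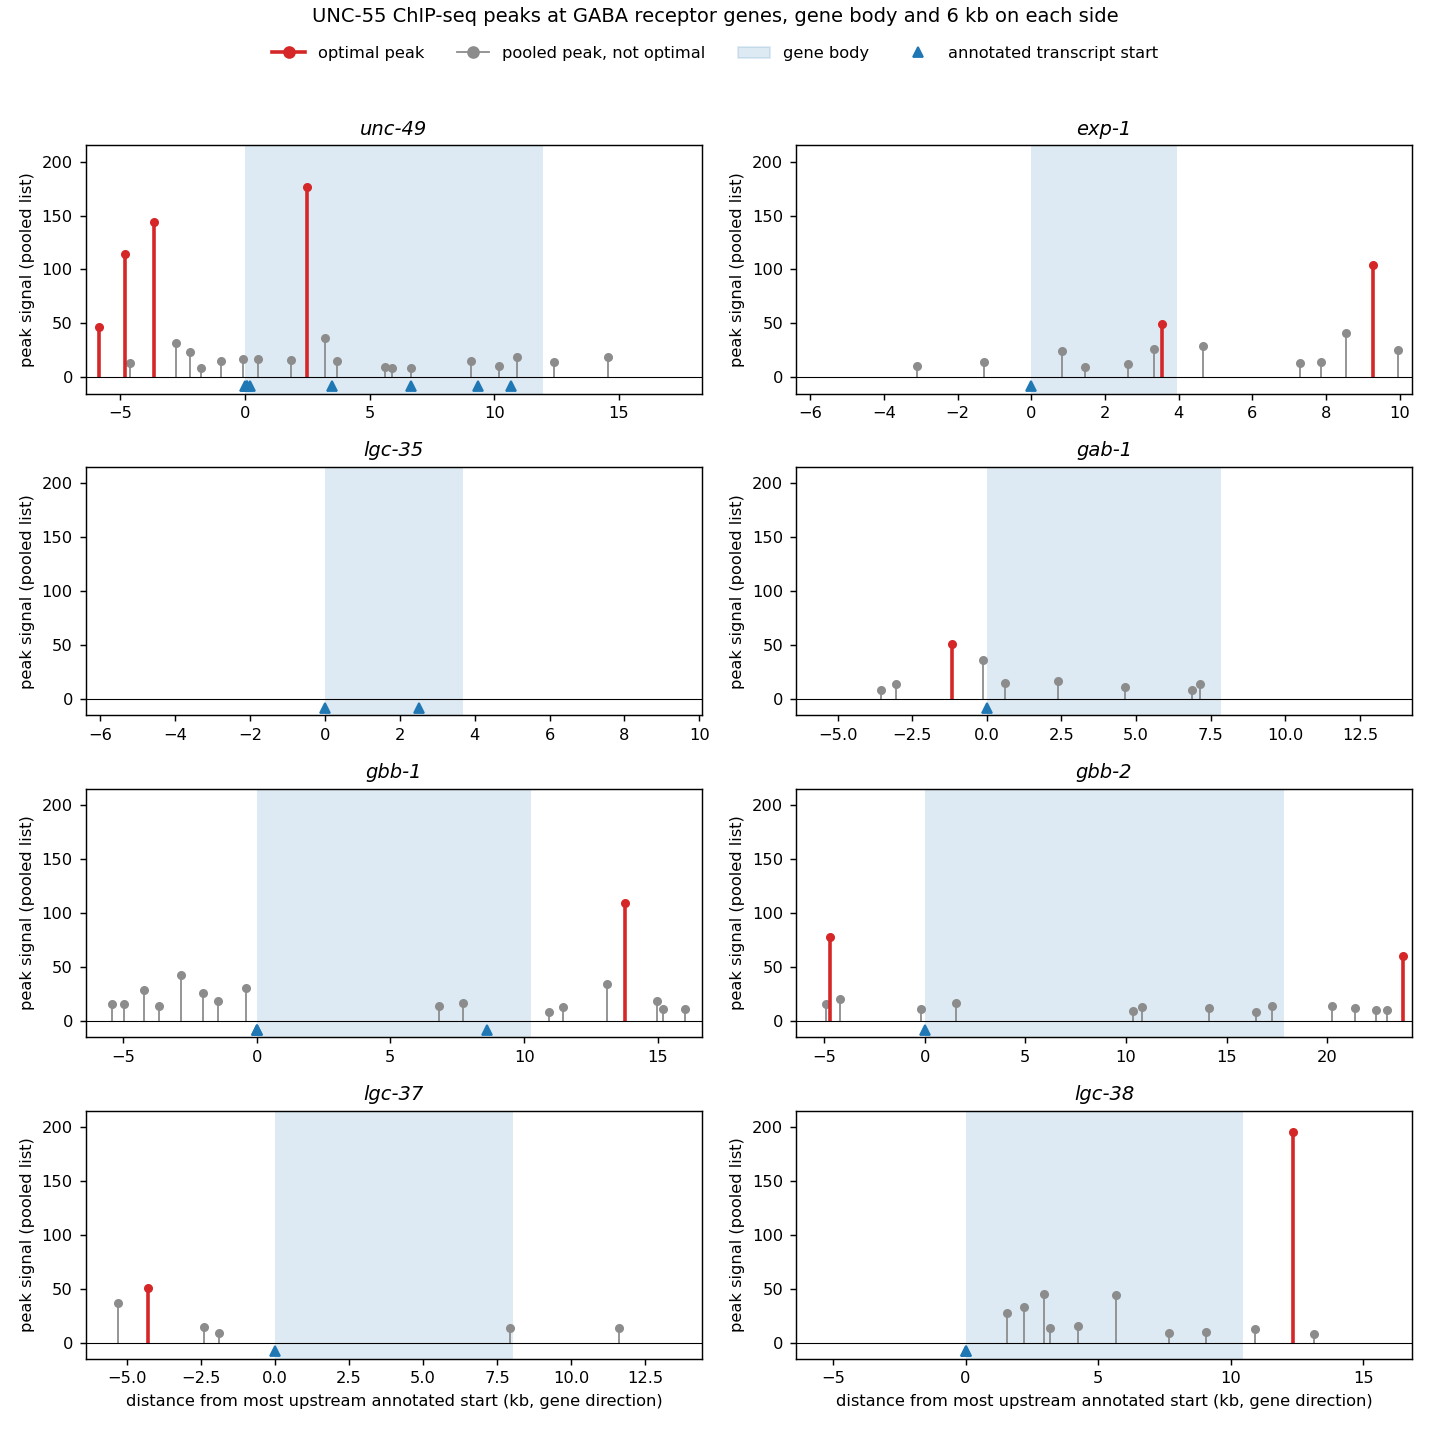
Signal of every pooled-list peak (vertical axis, the authors' caller units) against the distance of its summit from the most upstream annotated start (horizontal axis, kb in the direction of the gene) for the 8 receptor genes, where red stems are optimal peaks, grey stems pooled peaks that are not optimal, shading the gene body and triangles annotated starts. The tallest stems stand at unc-49 (176) and 1897 bp beyond the end of lgc-38 (195), and lgc-35 has none.

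unc-49 encodes the subunits of the GABA-gated chloride channel of body wall muscle, the receptor behind inhibition at the neuromuscular junction (WBGene00006784, chromosome III, 10520762 to 10532705, forward strand). It had the strongest peak inside any receptor gene and the most optimal peaks. Only 3.99% of all genes had 4 or more optimal peaks in reach, although the unc-49 window of 23.9 kb was longer than that of 96.5% of genes.

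The strongest unc-49 peak lay within the gene (signal 176, rank 1555 of 5993, 10523144 to 10523352). Its summit fell in intron 4, 1085 bp long, of the 8 transcripts that begin at the upstream starts. It was 2503 bp downstream of the most upstream start and 1003 bp upstream of an internal start, at 10524268, used by 3 annotated transcripts. unc-49 therefore counted as having a promoter peak through an internal start alone. In replicates 1, 2 and 3 the overlapping peak ranked 2438, 698 and 2293, on average 6.51% ± 3.65 of the way down the list (SD, n = 3). All 3 ranks were inside the number of peaks that the optimal list holds. The peaks of replicates 1 and 2 were narrow, however, at 86 and 103 bp, against 336 bp in replicate 3. The 3 peaks covered 41.1%, 49.3% and 100% of the optimal peak, so a rule asking for 50% coverage kept only replicate 3.

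The other 3 unc-49 peaks stood in a row upstream. The nearest lay 3658 bp before the most upstream start (signal 144, rank 2155, 10517003 to 10517212) and ranked 1738, 2400 and 3222 in replicates 1, 2 and 3. The middle one lay 4803 bp upstream (signal 114, rank 2850, 10515872 to 10516008) and ranked 2268, 3828 and 2463. Both were covered to at least 50% in every replicate and were among the strongest peaks of each. For the middle peak the cover in replicate 2 was only 51.1%. That replicate's summit lay 145 bp away, outside the optimal peak.

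The farthest upstream peak, at 5847 bp, was weak (signal 47.1, rank 5884). It ranked 4643 in replicate 1 and 6602 in replicate 2, and in replicate 3 only the edge of a peak whose summit lay 311 bp away touched it. All 3 upstream summits lay in a 5347 bp intron of sly-1, which encodes a Sec1-family regulator of membrane fusion. That intron occurs in 1 of the 2 sly-1 transcripts, and the other transcript ends at 10513015, before all 3 peaks. unc-49 still had the nearest protein-coding start.

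Close to the annotated upstream starts of unc-49 itself, signal was low. The pooled list held a peak 62 bp upstream with a signal of 17.1 (rank 14312), another 956 bp upstream with 15.3, and one 308 bp downstream with 17.2. None of these 3 peaks was overlapped in all replicates. Between the intron peak and the internal start stood a pooled peak of 36.4 (rank 7065), 282 bp upstream of that start, which ranked 6586 in replicate 1 and 23619 in replicate 3 and was not overlapped in replicate 2.

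exp-1 encodes a cation-selective GABA receptor that excites enteric muscles during defecation (WBGene00001373, chromosome II, 6157144 to 6161094, reverse strand). Its own optimal peak was among the weakest of the list (signal 49.7, rank 5682, 6157365 to 6157700) and lay in intron 14 of 15, 3561 bp downstream of the start and so near the far end of the gene. It ranked 7613 in replicate 1 and 7745 in replicate 3 and was not overlapped by any peak of replicate 2. A stronger peak in reach of exp-1 (signal 105, rank 3121, 6151644 to 6151979) lay beyond the end of the gene, inside an intron of abts-3, which encodes an anion transporter. That peak ranked 2601, 3959 and 3125 in replicates 1, 2 and 3. Its summit was 9282 bp from the exp-1 start and 4679 bp from the nearest abts-3 start. In the promoter window of exp-1 the pooled list had only a peak of 14.1, which no replicate list overlapped.

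lgc-35 encodes another cation-selective GABA channel, which responds to transmitter that spills over onto cholinergic motor neurons (WBGene00012915, chromosome II, 12836480 to 12840157, reverse strand). It stood at the opposite end from unc-49, with no optimal peak and no pooled peak in its 15.7 kb window. A window without any pooled peak was found for 33.2% of all genes, or 6624 of them. The relaxed lists held 2 peaks there in replicate 1 (ranks 9348 and 12912), 0 in replicate 2 and 1 in replicate 3 (rank 24917). Replicate 1 placed its peaks 1280 bp upstream and 348 bp downstream of a start, and replicate 3 placed its own 680 bp downstream.

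gab-1, which encodes a subunit of the GABA-A type, and lgc-37, a gene of the same channel family, stand head to head on chromosome III and share their upstream sequence (gab-1, WBGene00001512, 12771868 to 12779726, reverse strand; lgc-37, WBGene00013914, 12785154 to 12793176, forward strand). The single optimal peak between them (signal 51.0, rank 5584, 12780710 to 12781045) lay 1152 bp upstream of gab-1 and 4276 bp upstream of lgc-37. It ranked 5427 in replicate 1 and 3598 in replicate 3, and replicate 2 had no peak overlapping it. A second intergenic peak, 138 bp upstream of gab-1, stayed below the optimal list (signal 36.4, pooled rank 7068) yet was overlapped in all 3 replicates, at ranks 5967, 19790 and 10571. The pooled list gave lgc-37 1 promoter peak of its own, at 1899 bp upstream with a signal of 8.56, and no replicate overlapped it.

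lgc-38, a further member of the family (WBGene00017389, chromosome III, 7009136 to 7019584, forward strand), had the strongest peak in reach of any receptor gene. That peak lay 1897 bp beyond the end of the gene (signal 195, rank 1275, 7021389 to 7021590) and 275 bp downstream of the start of rfl-1, which encodes a subunit of the NEDD8-activating enzyme. It ranked 1325, 1984 and 774 in replicates 1, 2 and 3, at 4.70% ± 1.79 of the list (SD, n = 3). Within lgc-38 no peak was optimal, but 2 intronic pooled peaks came just below that list. The first, 2949 bp downstream of a start (signal 45.0), ranked 6063 in the pooled list, 70 places after the last optimal peak, whose signal was 45.8. It was overlapped in all replicates, at ranks 9391, 6334 and 13624, although in replicate 3 the peak with the nearest summit ranked 15906. The second, 5651 bp downstream (signal 44.2, pooled rank 6141), ranked 5518 and 14034 in replicates 1 and 2 and was not overlapped in replicate 3.

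gbb-1 encodes a GABA-B subunit (WBGene00021528, chromosome X, 2957935 to 2968192, forward strand). Its optimal peak was intergenic, 3519 bp beyond the end of the gene (signal 109, rank 2971, 2971543 to 2971878), and the nearest start was that of aakg-3, an AMP-activated kinase subunit gene, 4737 bp away. The peak held its place in every replicate, at ranks 2870, 3357 and 2902, which is 10.7% ± 1.03 of the list (SD, n = 3). Upstream of gbb-1 a series of weaker pooled peaks occurred. The one 2814 bp upstream (signal 42.8, pooled rank 6278) ranked 4696, 21989 and 6870 in replicates 1, 2 and 3. The one 415 bp upstream, in the promoter window (signal 30.8, pooled rank 8053), was overlapped in all 3 replicates at ranks 7413, 8540 and 12156.

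gbb-2 encodes the partner subunit (WBGene00022675, chromosome IV, 4488929 to 4506748, reverse strand). Neither of its optimal peaks was inside the gene. One lay 4697 bp upstream (signal 77.6, rank 4122, 4511277 to 4511612) and 136 bp upstream of rfth-1, at ranks 4082, 4003 and 4944. Its summit fell in a coding exon of another gene, ZK180.8. The other lay 5917 bp beyond the far end (signal 60.0, rank 4973, 4482844 to 4483179) and 103 bp upstream of M01H9.4. It ranked 5899 and 4544 in replicates 1 and 2. In replicate 3 the peak at the same place, with a summit 8 bp away, ranked 15474 of 25262, and a stronger peak that also overlapped, at rank 7511, had its summit 208 bp away. At the gbb-2 start the pooled list had a peak of 10.9 at 172 bp upstream, overlapped in replicate 1 (rank 12815) and replicate 3 (rank 15332). Both GABA-B subunit genes thus had optimal peaks in reach only outside their bodies and promoter windows.

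**Figure D2:**
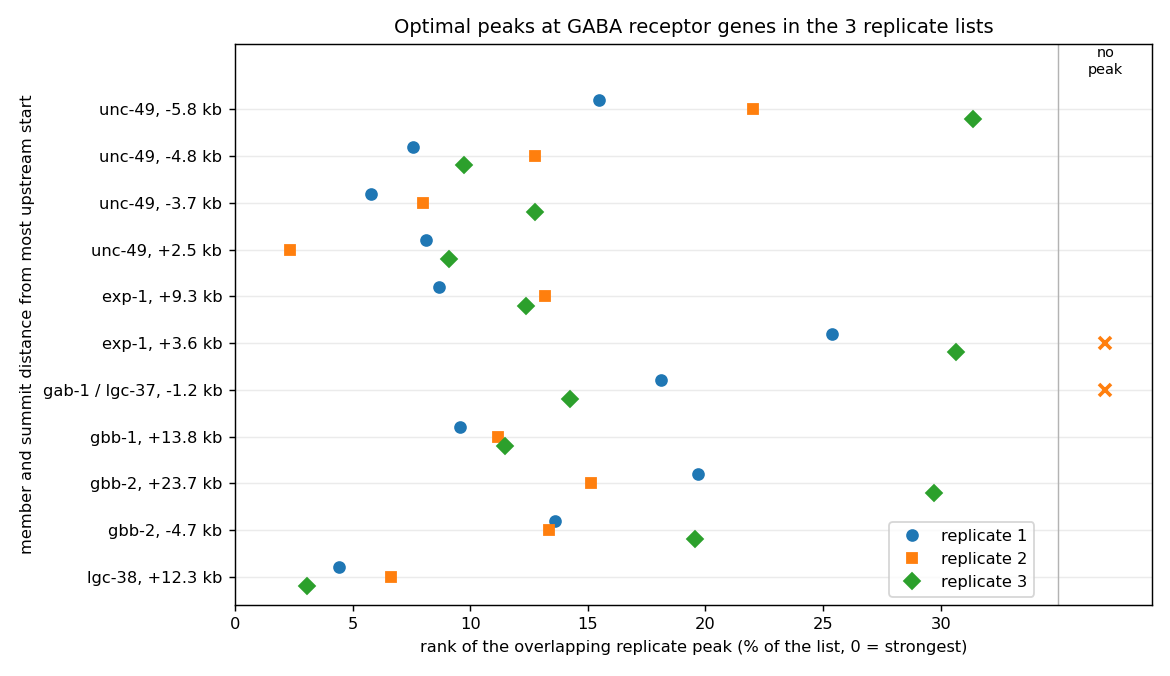
Rank of the best-ranked replicate peak that overlaps each of the 11 optimal peaks by at least 1 bp (horizontal axis, percent of that replicate's list, strongest at 0), with 1 row per peak, where circles, squares and diamonds are replicates 1, 2 and 3, crosses mark the absence of an overlapping peak, and distances run from the most upstream start (of gab-1 for the shared peak). The crosses belong to replicate 2 at exp-1 and at the peak shared by gab-1 and lgc-37.

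Of the 11 optimal peaks in reach, 9 were overlapped in all 3 replicates (81.8%, against 95.8% of all optimal peaks), and 7 were covered to at least 50% in all 3 (63.6% against 82.0%). The number that overlapped one of the 5993 strongest peaks in every replicate was also 7 (63.6%, against 68.6% of all optimal peaks). Signals were ordinary for the list. The median was 105 over the 11 peaks and 108.5 over all optimal peaks, and 5 of the 11 peaks were above 108.5.

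Taking from each replicate as many of its strongest peaks as the optimal list holds, 7, 5 and 7 receptor genes had a peak in reach in replicates 1, 2 and 3 (6.33 ± 1.15, SD, n = 3), against 52.3%, 52.9% and 52.8% of all genes. In promoter windows the numbers were 2, 1 and 2 genes (1.67 ± 0.577, SD, n = 3), against 25.7%, 26.1% and 25.8% of all genes. The gene missing from promoter windows in replicate 2 was gab-1, and from its wider windows gab-1 and lgc-37 were missing. unc-49 was counted in every replicate under both rules.

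The strongest pooled peak in reach had a signal above the median of all genes, 52.5, at 5 receptor genes. lgc-38 exceeded 80.1% of genes and unc-49 76.4%, gbb-1 and exp-1 exceeded 62.3% and 61.2%, and gbb-2 exceeded 55.2%. The peak shared by gab-1 and lgc-37 exceeded the value of 49.7% of genes. For lgc-38, gbb-1, gbb-2 and exp-1 this strongest peak was the one nearer to a neighbour's start.

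**Figure D3:**
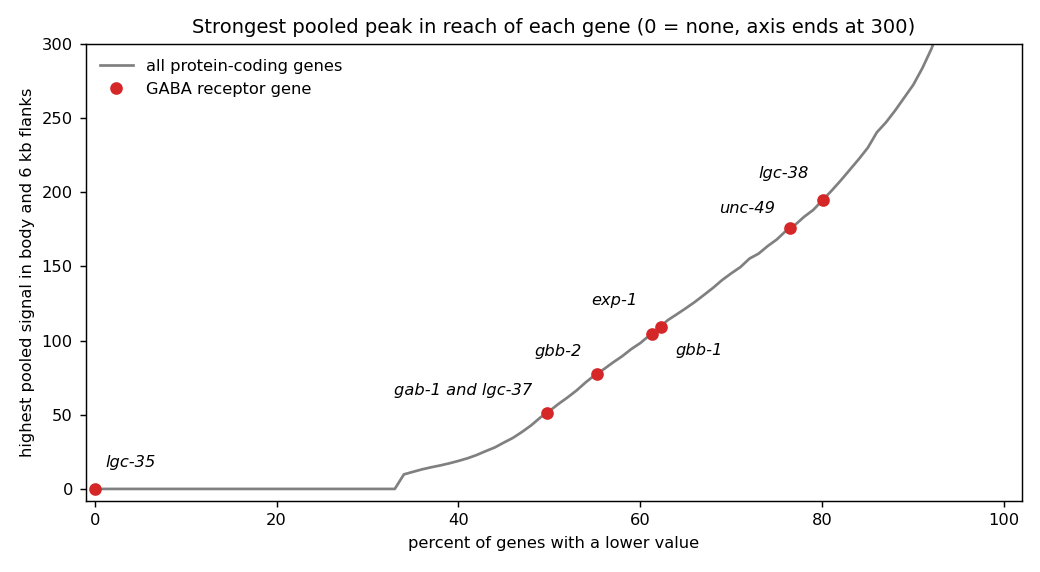
Signal of the strongest pooled peak in the gene body and 6 kb flanks (vertical axis) against the percent of protein-coding genes with a lower value (horizontal axis), where the grey line is all genes, with 0 for genes without a pooled peak, and red points are the receptor genes. Values run from 0 at lgc-35 to 195 at lgc-38, and gab-1 and lgc-37 share a point at 51.0.

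Weak entries of the pooled list were more frequent around some receptor genes than across the genome. That list was deposited as peaks and background together, so a count of its entries is not a count of bound sites. At unc-49 the pooled entry 1756 bp upstream had a −log10 q of 0.179 and the one 62 bp upstream 0.751. The strongest optimal peak of unc-49 had 4.12. The pooled list had a summit in reach of 7 of the 8 genes, against 66.8% of all genes, and in a promoter window of 6, against 43.2% of all genes. At exp-1 and lgc-37 the promoter count rested on a single entry that no replicate overlapped. At gbb-2 it rested on an entry with a signal of 10.9. In total 89 distinct pooled peaks lay in the merged windows, 5.45 per 10 kb against 2.99 per 10 kb of the nuclear genome. Of these, 78 were not optimal, 4.77 per 10 kb against 2.39 per 10 kb of the nuclear genome. unc-49 had 22, gbb-1 had 17, gbb-2 had 15 and exp-1 had 13, and the fewest apart from lgc-35 were the 6 of lgc-37.

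By replicate, relaxed peaks numbered 6.82 ± 1.21 per 10 kb at unc-49, 6.29 ± 1.96 at gbb-1 and 5.85 ± 0.958 at exp-1, against 2.83 ± 0.273 in the nuclear genome (SD, n = 3 each). In every replicate these 3 genes were above the genome's value in that same replicate, which was 2.99, 2.99 and 2.52 per 10 kb in replicates 1, 2 and 3. gab-1, at 2.35 ± 0.291, lgc-37, at 2.16 ± 0.577, and lgc-35, at 0.638 ± 0.638, were below it in each replicate (SD, n = 3 each). lgc-38, at 3.71 ± 1.43, was above it in each replicate, and gbb-2, at 3.35 ± 1.01, in replicates 1 and 2 only (SD, n = 3 each). The median window of all genes had 2.07 ± 0.117 relaxed peaks per 10 kb (SD, n = 3). In replicate 3 the gap at gab-1 was slight, 2.518 against 2.519. The pooled density at unc-49, 9.19 per 10 kb, exceeded that of 97.8% of genes. At gab-1 the pooled density was 4.53 per 10 kb, above the genome's 2.99 and above that of 77.4% of genes. It was 3.00 at lgc-37 and 0 at lgc-35. As no q-value filter was applied, the replicate counts also take in weak entries. One at unc-49 in replicate 1 had a −log10 q of 0.147.

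**Figure D4:**
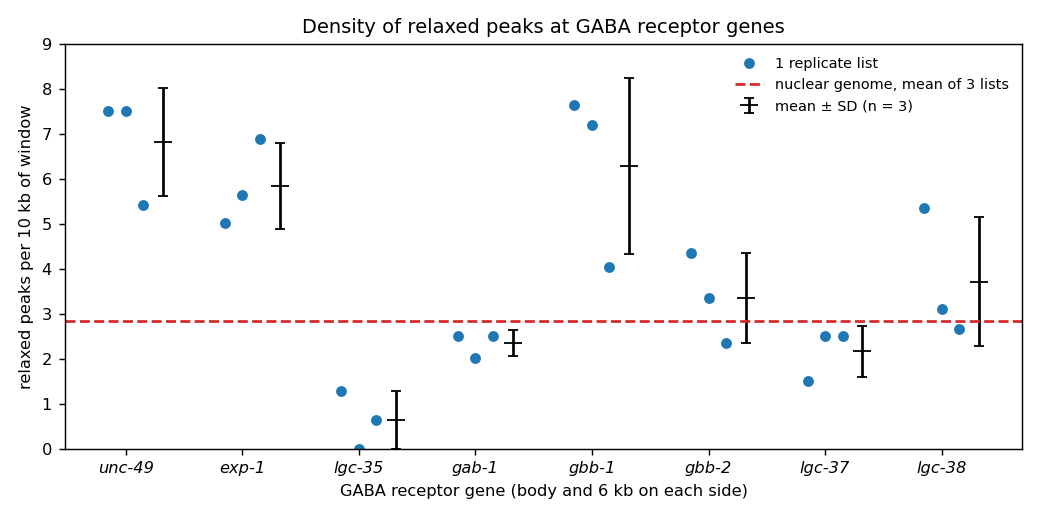
Relaxed peaks per 10 kb of gene body and 6 kb flanks (vertical axis) at each receptor gene, where points are replicates 1, 2 and 3 from left to right, bars the mean ± SD (n = 3), and the dashed line the mean density of the nuclear genome, 2.83 per 10 kb. unc-49, exp-1 and gbb-1 stand highest, and all 3 lgc-35 points lie below the line.

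Other lists of genes were counted by the same rules, and the channel list among them is not confined to GABA signalling. Of 6 genes that place GABA-A receptors at the neuromuscular junction, 4 carried an optimal summit within their promoter windows. These were the netrin receptor gene unc-40 (signal 274), madd-4, which encodes a secreted synapse organiser (149), the neurexin gene nrx-1 (118) and the FERM-domain gene frm-3 (71.8). The neuroligin gene nlg-1 and the CASK gene lin-2 had none, although lin-2 had 2 optimal peaks in its gene body or 6 kb flanks. Of 5 genes for G protein subunits, 3 had one, gpc-2 (224), gpb-1 (202) and gpb-2 (188), while goa-1 and gpc-1 had optimal peaks in the wider window alone. Of 17 other pentameric channel genes matched in the annotation, 3 had one, lgc-46 (114), acc-2 (61.9) and avr-14 (54.0), against 25.5% of all genes for each of these promoter counts. In the gene body or 6 kb flanks, 11 of the 17 channel genes had an optimal peak, or 64.7%, against 51.5% of all genes. Differences between these lists and the receptor genes were not tested.

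The genes whose sequence the transgene carries were looked up as well. No optimal peak lay in the bodies or 6 kb flanks of unc-55, ttr-39 or dpy-20, and their promoter windows had no pooled summit.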

How the data were processed

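UNC-55 ChIP-seq was deposited as narrowPeak lists for 3 replicates, 1 group. Per the deposited notes, a relaxed list was called for each replicate, and 1 for the pooled replicates, against a shared control alignment. The same notes describe the optimal list as peaks past the authors' irreproducible discovery rate threshold, in ce11. By coordinates, it equals the pooled peaks of highest signal, taken to the same number. The ce10 lists were not used here. Which aligner and caller made them was not given in the sources used here. Each peak's signal value is the authors' own as deposited, of unstated relation to depth, and was used only to describe and rank peaks within a list. The −log10 of a q-value was deposited beside it and was not used to rank or filter peaks. The ce11 lists hold 5993 optimal, 30000 pooled, and 30000, 30000 and 25262 replicate peaks, so the lower ends of those at 30000 are set by that number.

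Genes came from Ensembl release 115 (WBcel235) and sequence from RefSeq's copy of that assembly. Annotated coding starts read ATG in 99.8% of transcripts. Annotated starts can be trans-splice sites downstream of true initiation. A peak was placed by its summit. Background is the share of all 19973 nuclear protein-coding genes counted alike. Replicate overlap needed at least 1 bp, or 50% where said. No test was run, since there is 1 group and the receptor genes and lists were chosen with earlier results of these data known. Every receptor gene and each of its optimal peaks is named. A neighbour is named where its start is nearest or its body holds the summit. Of the channel list's 20 symbols, 3 (ggr-1, ggr-2, ggr-3) matched no gene. Placement and distances were tested on simulated data. Python 3.11.15 and pandas 2.3.3 were used. The sequence of 1 peak is not reported here. Alternatives are given in the closing section.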

Additional observations from a re-analysis of the deposited data

How the results depend on the processing

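The 7 receptor genes and 11 optimal peaks in reach, and the 2 genes with a promoter summit, were recounted under other settings. A flank of 2000 bp left 4 genes and 4 peaks, and the optimal peaks above the list's median left 3 genes, 5 peaks and 1 promoter gene. Counting only peaks nearest to a start of the receptor gene left 3 genes and 6 peaks. With a promoter window of 1000 bp upstream to 200 bp downstream the promoter count was 0, and with the most upstream start alone, a choice made after seeing the data, it was 1. Without each replicate in turn, which kept optimal peaks covered to 50% by the strongest peaks of both others, the counts were 5 to 7 genes, 6 to 7 peaks and 0 to 1 promoter genes. Here the unc-49 intron peak was dropped without replicate 1, 2 or 3, because replicates 1 and 2 covered under 50% of it. The strongest peaks of replicate 2 alone gave 1 promoter gene. The pooled list gave 89 peaks and 6 promoter genes. Peaks clear of every other protein-coding gene, also chosen after seeing the data, numbered 4. Of the 11 peaks, 7 were covered to 50% in all replicates, and 0 at 90%. All other settings tried were within 1.5 times of the values reported. No paired analysis was possible because there is only 1 group. Depth is unknown, so a peak missing from a list does not show that the site was unbound, and 8 genes limit what any share can show.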
